A study of Mus musculus with 28 samples.

Results

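Autophagy delivers cell contents and whole organelles to the lysosome for breakdown. The 38 genes described here, of 45513 gene rows in the deposited count table, were chosen by name for their place in that route. They comprise 2 transcription factors that switch lysosomal and autophagy genes on (Tfeb and Tfe3) and 8 genes that start the autophagosome. A further 8 encode ubiquitin-like proteins or serve their attachment to its membrane (conjugation). Another 5 bind cargo or mark mitochondria for it (called receptors below), and 15 are genes of the lysosome itself. Each of the 38 had 1 row in the table. All 38 passed the filter on low counts, and the lowest count of any member in any library was 66.

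The libraries were made from total RNA of ventricular myocardium of 28 adult male C57BL/6 mice, 1 library per mouse. Chronic kidney disease (CKD) had been induced by 5/6 nephrectomy, in which most renal tissue is removed in stages, at 6 weeks of age, and control mice had sham operations. On day 7 each mouse was given by gavage either a single dose of Oxalobacter formigenes (Oxf), a gut bacterium that lives on oxalate, or only the medium it grew in (vehicle). Of the sham-operated mice 10 had vehicle (sham-vehicle) and 5 had the bacterium (sham-Oxf), and of the mice with CKD 6 had vehicle (CKD-vehicle) and 7 the bacterium (CKD-Oxf). All 4 groups ate a diet with 1% hydroxyproline, from which the body makes oxalate, and 0.5% calcium, so no group is an untreated mouse on plain food. The design lists 10 mice per group, and the other mice were not analysed here.

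In a heart muscle cell, which is rarely replaced, autophagy removes damaged mitochondria and protein aggregates and supplies amino acids in fasting. The ULK1 kinase complex and the BECN1 lipid kinase complex open a membrane, ATG7 and ATG3 with the ATG12 and ATG5 conjugate attach LC3 and GABARAP proteins to it, and receptors such as p62 (Sqstm1), optineurin, BNIP3L and FUNDC1 bind cargo to those proteins. The closed vesicle fuses with lysosomes that LAMP proteins line, that V-ATPase subunits acidify and in which cathepsins and glycosidases digest the content. In cells with enough nutrients TFEB and TFE3 are held in the cytoplasm, so their activity is set largely by location and phosphorylation, which RNA counts do not measure.

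Library totals ran from about 19799000 to about 65378200 counts. The library sham-Oxf 1 stood apart, with 15879 genes that had a count against 27128 to 33995 in the other 27. The share of counts on 7SL RNA, the abundant non-coding RNA of the signal recognition particle, ran from 1.83% to 21% between libraries, with medians of 10.1% (sham) and 14% (CKD) in the vehicle groups and of 2.70% (sham) and 7.73% (CKD) in the Oxf groups. A clock score was the mean log2 level of 9 clock genes, Dbp and Per2 among them, minus that of 4 genes of the opposite phase. Its group medians were -0.24, -1.68, 2.13 and 1.39. Here and below, 4 values in a row are for sham and CKD on vehicle, then sham and CKD with Oxf. All 8 cardiomyocyte markers had counts in every library. Levels below are CPM, the usual unit that scales a gene's count to a common library size, with trimmed-mean (TMM) scaling of the totals. Changes are log2 fold changes with their standard error (SE) from edgeR's quasi-likelihood test over 24273 genes in all 28 libraries, and a gene passed at a Benjamini-Hochberg adjusted p under 0.05 over all of them. The tissue is bulk muscle with blood vessels, fibroblasts and immune cells, so fewer cells of a type and less RNA per cell cannot be told apart.

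TFEB and TFE3 bind the E-box CACGTG in promoters of lysosomal genes, and a search of the RefSeq promoter windows (build GRCm38.p6) shows how the members differ in it. The letters read the same on both strands. A window was at hand for 31 of the 38 members, and 11 of these (35.5%) held CACGTG, against 8.09% of the 27025 genes with a window. The longer form TCACGTG, which contains the same letters, was in 9 of the 31 (29.0%) against 4.29% of genes. A still longer form that contains both was also searched for, and was in 0 of the 31 against 0.37% of genes. It is rare among all genes, so its absence from 31 windows says little. The 11 members were Atg3, Atg5, Atg7, Atg14, Lamp1, Mcoln1, Ctsd, Ctsl, Gaa, Atp6v0d1 and Atp6v1a. The sequences below are the 100 bases that end just before the more upstream of the gene's GENCODE and RefSeq starts (the RefSeq start for Laptm4a) for the 2 members that passed a test in these hearts, Tfeb and Laptm4a, and for 2 lysosomal members with the E-box, written 5′ to 3′ on the plus strand with CACGTG in capitals.
Tfeb promoter, chr17:47736930-47737029 (+): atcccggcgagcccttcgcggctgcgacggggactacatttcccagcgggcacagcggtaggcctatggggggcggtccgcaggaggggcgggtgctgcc
Laptm4a promoter, chr12:8921207-8921306 (+): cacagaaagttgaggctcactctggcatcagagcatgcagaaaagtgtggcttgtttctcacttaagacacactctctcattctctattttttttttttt
Lamp1 promoter, chr8:13159061-13159160 (+): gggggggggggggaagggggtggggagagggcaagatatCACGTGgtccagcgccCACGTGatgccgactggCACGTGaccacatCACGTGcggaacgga
Mcoln1 promoter, chr8:3500357-3500456 (+): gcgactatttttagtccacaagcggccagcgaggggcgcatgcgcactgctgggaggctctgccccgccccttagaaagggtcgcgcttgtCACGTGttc
The Lamp1 stretch holds 4 copies, the Mcoln1 stretch 1 copy, and those of Tfeb and Laptm4a hold 0. Tfeb has 3 start sites in the table and Laptm4a 1, and none of their windows held CACGTG. Laptm4a's RefSeq start lies upstream of its GENCODE start, so its stretch may not be the promoter in use. A match says only that the letters are there.

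Per kilobase of exon, the most abundant member over the 28 libraries was Map1lc3a (LC3A, an LC3 protein that decorates the autophagosome) at 50.2 CPM per kilobase. It was followed by the mitochondrial kinase gene Pink1 at 46.9, the p62 gene Sqstm1 at 36.1, the lysosomal membrane protein gene Laptm4a at 35.7 and the aspartic protease gene Ctsd at 34.7. The lowest were Atg12 at 1.36, Tfe3 at 1.68 and the V-ATPase subunit gene Atp6v1h at 1.94 CPM per kilobase. Within the cathepsins the order was Ctsd, Ctsb at 15.6, Ctsz at 10.8 and Ctsl at 9.67 CPM per kilobase. These levels per kilobase depend on the exon models and describe abundance only.

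The first question was whether gavage with Oxf went with a difference in these genes over both surgeries. In this comparison, the mean of the sham and the CKD difference, 2 of the 38 members passed, against 681 of 24273 genes (2.81%), which is 307 higher (1.26%) and 374 lower (1.54%). Laptm4a fell and Tfeb rose. At an unadjusted p under 0.05 there were 15 of 38 members, 5 higher and 10 lower, against 23% of genes (11.5% higher and 11.5% lower).

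Laptm4a (ENSMUSG00000020585, chr12:8921664-8938742 on the plus strand of mm10) encodes a membrane protein of late endosomes and lysosomes. Its CPM in sham-vehicle ran from 50.8 through a median of 65.2 to 96.5, and in CKD-vehicle from 58.4 through 76.7 to 110.1. In the 5 sham-Oxf libraries it was 42.1, 44.0, 64.9, 46.2 and 41.3, and in CKD-Oxf it ran from 44.4 through 46.6 to 80.2. Of the 12 Oxf libraries, 9 lay below every one of the 16 vehicle libraries, and the high exceptions were sham-Oxf 3, CKD-Oxf 4 and CKD-Oxf 7. Group means were 68.5 ± 17.8 (SD, n = 10), 79.5 ± 19.4 (n = 6), 47.7 ± 9.80 (n = 5) and 53.0 ± 13.5 CPM (n = 7). Laptm4a fell by 0.55 on the log2 scale (SE 0.13, adjusted p = 0.0305), which is -31.9% (95% interval -43.5 to -17.9%). The difference was -0.52 ± 0.19 (SE) in sham hearts and -0.59 ± 0.18 in CKD hearts, and neither passed alone.

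Tfeb (ENSMUSG00000023990, chr17:47737030-47792419, plus strand) encodes the basic helix-loop-helix factor that drives the lysosomal gene programme. Its CPM ran from 19.1 through a median of 22.2 to 31 in sham-vehicle and from 19.4 through 24 to 28.9 in CKD-vehicle. The sham-Oxf libraries held 31.3, 32.7, 27.6, 30.4 and 32.1 CPM, and CKD-Oxf ran from 20.6 through 28.5 to 37.3. All 5 sham-Oxf libraries were above 9 of the 10 sham-vehicle libraries, and 10 of the 12 Oxf libraries were above the vehicle median of 22.4 CPM. The low exceptions were CKD-Oxf 4 and CKD-Oxf 7, so the groups overlapped. Tfeb rose by 0.33 on the log2 scale (SE 0.09, adjusted p = 0.0461), which is 25.3% (95% interval 10.3 to 42.5%), with differences of 0.44 ± 0.12 in sham and 0.21 ± 0.13 in CKD hearts. Its partner Tfe3 differed by 0.07 ± 0.09 (adjusted p = 0.699).

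**Figure D1:**
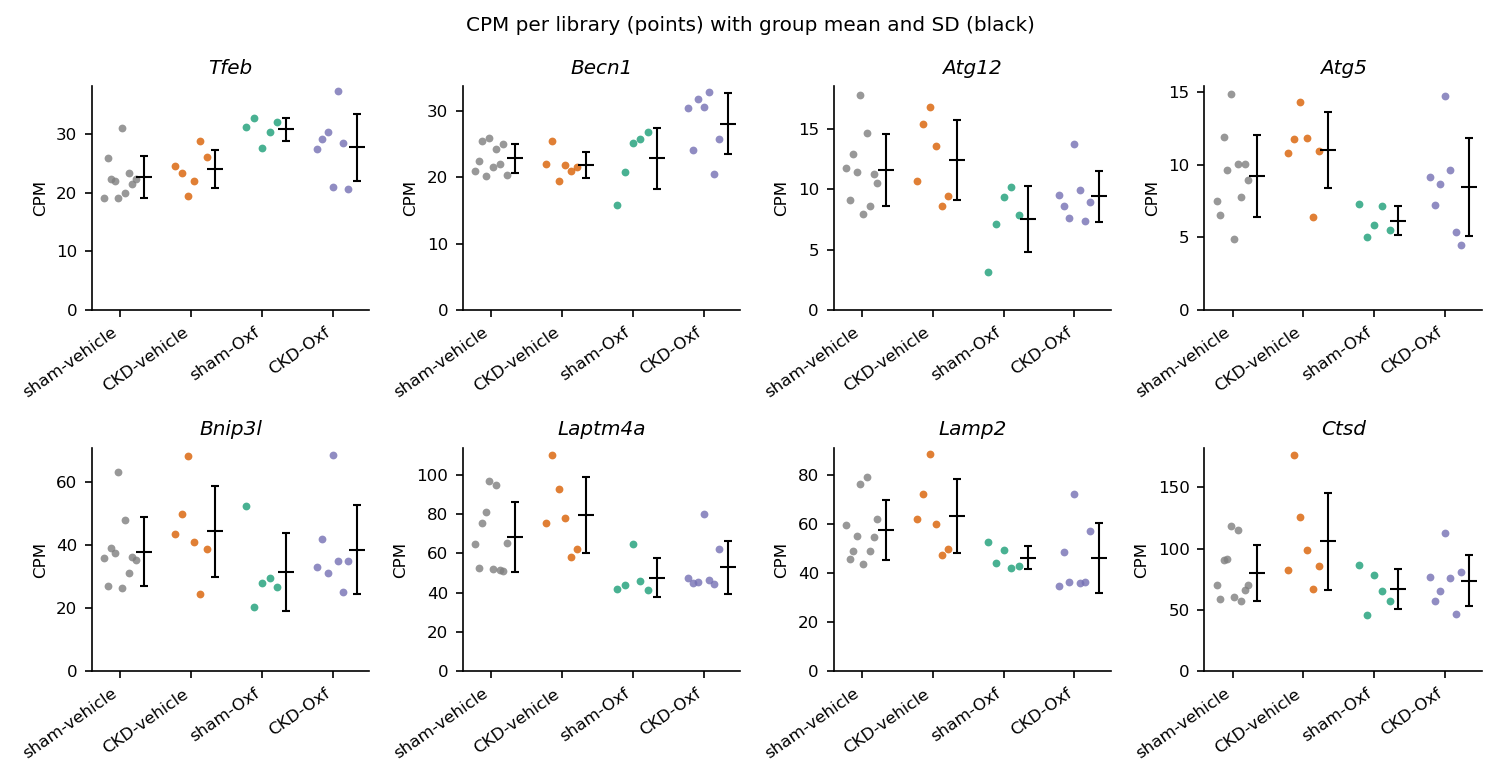
Points are libraries, the vertical axis is CPM from 0, and the black mark and bar are the group mean and SD, for 8 members and the 4 groups. Most Oxf libraries lie low in Laptm4a, Lamp2, Atg12 and Atg5 and high in Tfeb, with single high libraries such as CKD-Oxf 4.

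Both calls were close to the threshold. Laptm4a was lost without CKD-vehicle 2 or 3, sham-Oxf 4 or 5, or CKD-Oxf 3 or 6 (adjusted p up to 0.0638, without CKD-vehicle 2). Tfeb passed in 9 of 28 fits on 27 libraries (without sham-vehicle 2, 6 or 8, CKD-vehicle 5 or 6, sham-Oxf 1 or 3, or CKD-Oxf 4 or 7), with adjusted p from 0.0119 to 0.106. With the 7SL share, the clock score or the library's slope on GC content as a covariate, Laptm4a differed by -0.39, -0.33 and -0.26 and Tfeb by 0.25, 0.29 and 0.14, and neither passed. The count of members that passed was 7 by DESeq2 (Tfeb, Atg5, Atg12, Lamp2, Laptm4a, Ctsb and Atp6v1h) and 17 by limma voom with sample weights, against 9.97% and 22% of the genes to which these tools gave an adjusted p. By edgeR it was 11 without CKD-Oxf 4, 8 without CKD-vehicle 5, and 0 without CKD-vehicle 2 or 3, sham-Oxf 4 or 5, or CKD-Oxf 3 or 6. Without sham-Oxf 1, the library with few genes, the edgeR count was 2. The share of all genes that passed in each of these edgeR fits is not given here. The edgeR counts therefore only describe the members.

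By role, the averaged Oxf differences had medians of 0.20 for the 2 regulators, 0.12 for initiation, -0.31 for conjugation, -0.04 for receptors and -0.14 for lysosomal genes, with -0.07 over all 38 members and 0.00 over all genes tested. Most initiation genes lay above 0 and most conjugation, receptor and lysosomal genes below it, where 50.4% of all genes lay above 0. Only Laptm4a and Tfeb passed by edgeR, and the other values are given as a description.

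Of the 8 initiation genes, 6 lay above 0 and 0 passed by edgeR or DESeq2, with 2 at an unadjusted p under 0.05 and 2 called by limma voom (Becn1 and Atg9a). They were led by Atg14, which directs the BECN1 lipid kinase complex to the growing membrane, at 0.25 ± 0.12 (adjusted p = 0.190), Becn1, its core subunit, at 0.18 ± 0.08 (0.191), and Atg9a, a lipid scramblase that brings membrane, at 0.17 ± 0.09 (0.235). Ulk1, the kinase that starts the process, was the initiation gene with the highest CPM, with means of 55.3 ± 6.32, 55.2 ± 5.65, 57.6 ± 9.31 and 62.5 ± 14 CPM in the 4 groups, and differed by 0.12 ± 0.09. Its kinase relative Ulk2 and the scaffold gene Atg13 differed by 0.08 and 0.12, and the membrane adaptors Wipi1 and Wipi2 by -0.05 and -0.01. Atg14 was at 19.9 CPM in sham-Oxf 1, against 8.31 to 11.8 in the other 4 libraries of that group. Exons of Becn1 overlap those of Cntd1 on the other strand, and exons of Atg9a overlap those of Gm29253 on the same strand. Whether counting used strand is not given in the sources used here, so reads of these pairs may be shared.

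Of the 8 conjugation genes, 7 lay below 0 and 0 passed by edgeR, with 4 at an unadjusted p under 0.05, 2 called by DESeq2 (Atg5 and Atg12) and 5 by limma voom. Atg12, a ubiquitin-like protein that is joined to ATG5, ran from 7.95 through 11.4 to 17.8 CPM in sham-vehicle and from 8.64 through 12.2 to 16.8 in CKD-vehicle. It was 3.13, 7.14, 9.37, 10.2 and 7.83 CPM in sham-Oxf and ran from 7.41 through 8.95 to 13.8 in CKD-Oxf. Of the 12 Oxf libraries 11 lay below the vehicle median and 5 below every vehicle library, so the groups overlapped. The Atg12 difference was -0.51 ± 0.15 (adjusted p = 0.0611), and 0.0198 by DESeq2. Its partner Atg5 differed by -0.48 ± 0.17 (0.0882), Map1lc3b, the commonly used LC3 marker gene, by -0.34 ± 0.15 (0.175), Gabarapl1 by -0.32 ± 0.15, Map1lc3a by -0.31 ± 0.16, Gabarap by -0.24 ± 0.15 and Atg3 by -0.16 ± 0.10. Atg7, the E1-like enzyme that activates both conjugates, was the exception at 0.16 ± 0.08 (0.219).

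Of the 5 receptor genes, 4 lay below 0 and 1, Sqstm1, above it. By edgeR and DESeq2 0 passed, 0 had an unadjusted p under 0.05, and limma voom called 1 (Bnip3l). Sqstm1, whose protein p62 links ubiquitinated cargo to LC3, differed by 0.14, and its adaptor relative Optn by -0.03. Pink1, the kinase that marks damaged mitochondria, had the highest CPM of any member, with means of 113.2 ± 36.5, 144.8 ± 46.9, 116.8 ± 37.6 and 132.5 ± 41.1 in the 4 groups, and differed by -0.04 ± 0.17. The mitophagy receptors of the outer mitochondrial membrane Bnip3l and Fundc1 differed by -0.24 ± 0.17 and -0.18 ± 0.13. Their 95% intervals, from -0.58 to 0.10 and from -0.45 to 0.10, include both lower and slightly higher values.

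Of the 15 lysosomal genes, 12 lay below 0 and 1, Laptm4a, passed. Lamp2, whose protein lines the lysosome and takes part in fusion with autophagosomes, ran from 44.0 through 55.1 to 79.5 CPM in sham-vehicle and from 47.6 through 61.2 to 88.6 in CKD-vehicle. In sham-Oxf it was 52.8, 44.3, 49.6, 42.1 and 43.2 CPM, and in CKD-Oxf it ran from 35.1 through 36.7 to 72.3. The CKD-Oxf group split, with 4 libraries between 35.1 and 36.7 CPM and CKD-Oxf 4 at the top. Lamp2 differed by -0.39 ± 0.12 (adjusted p = 0.0694), its relative Lamp1 by -0.33 ± 0.15 (0.196), the cysteine protease gene Ctsb, the lysosomal member with the highest CPM, by -0.43 ± 0.15 (0.0906) and the aspartic protease gene Ctsd by -0.39 ± 0.16 (0.136). Among the members, the acidification and sugar-digesting genes lay nearer 0 than Lamp2, Lamp1, Ctsb and Ctsd. The V-ATPase subunit genes Atp6v1h, Atp6v1a and Atp6v0d1 differed by -0.22 ± 0.07 (0.0804), -0.17 ± 0.11 and -0.08 ± 0.09, and the acid hydrolase genes Gaa and Hexa by -0.14 ± 0.09 and -0.08 ± 0.09. The protease genes Ctsl and Ctsz differed by -0.05 and 0.05 and the cholesterol carrier gene Npc2 by -0.05. On the other side, Mcoln1, a lysosomal calcium channel, was above the vehicle median of 21.3 CPM in 11 of 12 Oxf libraries, CKD-Oxf ranging from 15.3 to 33.5 CPM. It differed by 0.32 ± 0.12 (0.11) and Npc1, the cholesterol exporter of the lysosomal membrane, by 0.20 ± 0.10 (0.213).

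**Figure D2:**
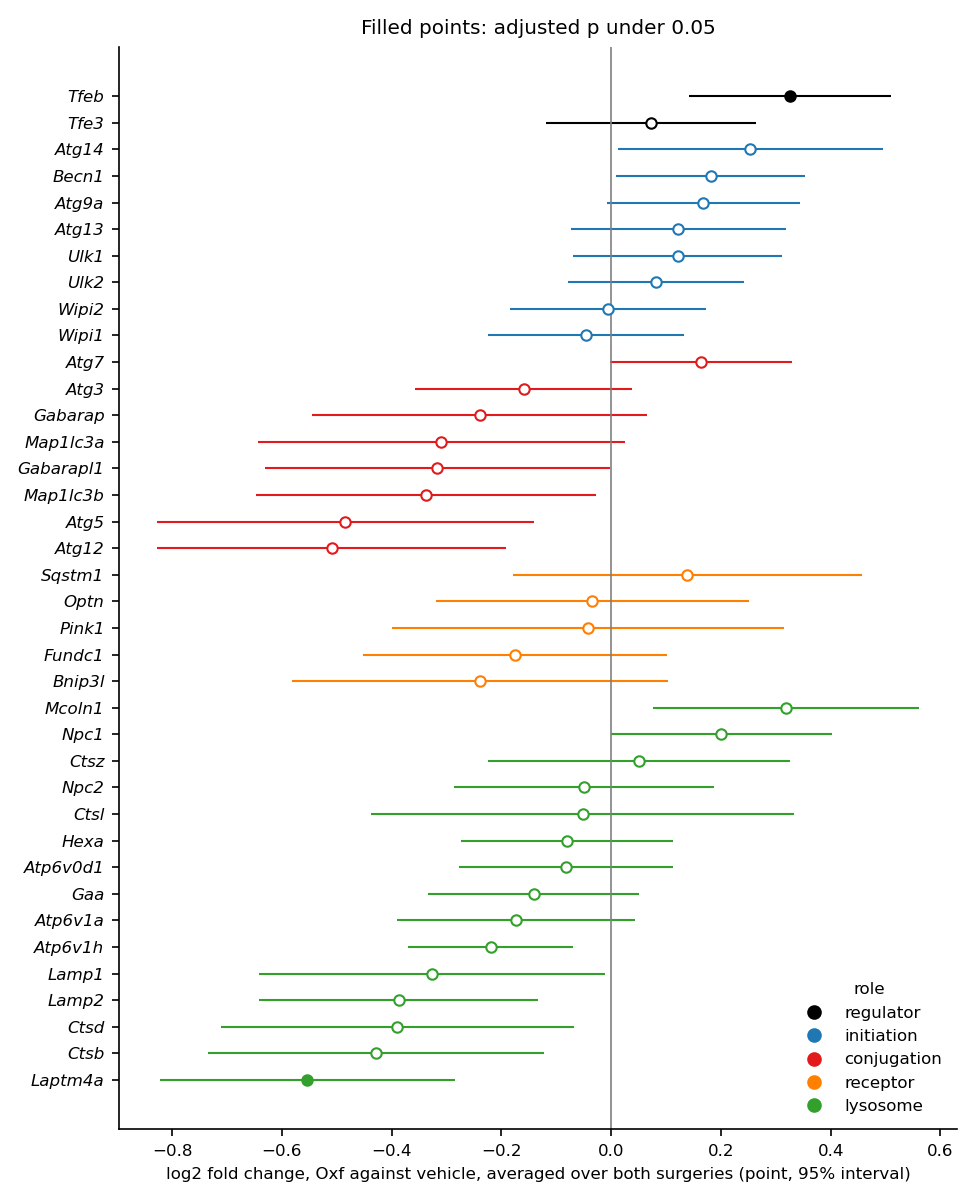
Log2 fold change of Oxf against vehicle, averaged over both surgeries, with its 95% interval for the 38 members, ordered by role and value and coloured by role. Only Laptm4a (-0.55) and Tfeb (0.33) are filled, the mark of an adjusted p under 0.05, and 7 of 8 conjugation genes and 12 of 15 lysosomal genes lie below 0.

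Group means are another reading of the same values. In 17 members both Oxf means were below both vehicle means, among them 6 conjugation genes, 10 lysosomal genes and the receptor gene Fundc1. In 8 members both Oxf means were above both vehicle means, namely Tfeb, Ulk1, Becn1, Atg9a, Atg7, Sqstm1, Npc1 and Mcoln1. The share of all genes in either order was not counted, so these counts only describe the members and cannot be set against other genes. The 11 members with CACGTG in their window had a median averaged Oxf difference of -0.14, with 3 above and 8 below 0, and the 20 without it -0.04, with 8 above and 12 below.

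Cell type markers were read beside these values. In the averaged Oxf comparison, 1 of 8 cardiomyocyte markers passed (Tnni3, -0.72) and the list's median was -0.48, with median summed levels of 26627, 31061, 25491 and 26517 CPM. Within the list Ryr2 went the other way, with group medians of 2443, 3023, 3272 and 3541 CPM. Among fibroblast markers 1 of 8 passed (Lum, -0.85) with a median of -0.56, and group medians of the summed level were 736, 684, 482 and 482 CPM. Macrophages, which are rich in lysosomes, showed 0 of 12 markers past the threshold with a median of -0.08, and summed levels with medians of 199, 209, 184 and 193 CPM (range over all libraries 146 to 336). Cd68 was the macrophage marker at 0 in 1 library. Of the clock genes in the score, 6 of the 9 passed as higher with Oxf and 4 of 4 of the opposite phase passed as lower. Among liver markers 2 of 8 passed (Alb, 2.67, and Serpina1c, 2.76), with a median of 1.33 and summed medians of 31.2, 5.77, 60.1 and 27.9 CPM. The liver list was not uniform, as its median Oxf difference was -0.45 in sham and 2.76 in CKD hearts. Of 6 atrial markers 0 passed, with a median of -0.67, and their summed level had medians of 905, 1502, 635 and 804 CPM, with all 6 counted in every library and a range from 40.9 to 1917 CPM. Of 7 adipose markers 0 passed, with a median of 0.25 and summed medians of 93.2, 15.5, 24.9 and 34.1 CPM, Cfd being the 1 with a count in every library. Of 7 tested skeletal muscle markers 0 passed, with a median of -2.67 and summed medians of 42.2, 81.0, 37.8 and 49.5 CPM. The highest summed level in each group was 766, 837, 82.5 and 175 CPM, on vehicle far above the group medians. How far the -2.67 depends on such high vehicle libraries was not tested. Of 8 endothelial and 5 blood markers 0 passed, with medians of -0.20 and 0.61. The part of the cell type shifts in the members' differences was not tested.

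Oxf was then compared within each surgery. Between CKD-Oxf and CKD-vehicle 0 of 38 members passed by edgeR and 0 by DESeq2, against 8 genes (0.033%) by edgeR and 0.785% by DESeq2, and 7 members had an unadjusted p under 0.05 against 13.1% of genes. The smallest p values were for Laptm4a at -0.59 ± 0.18 (adjusted p = 0.220), Becn1 at 0.36 ± 0.12 (0.237) and Lamp2 at -0.46 ± 0.17 (0.287). Becn1 ran from 19.4 through 21.7 to 25.4 CPM in CKD-vehicle and from 20.5 through 30.5 to 32.9 in CKD-Oxf, and 5 of the 12 Oxf libraries exceeded every vehicle library. With limma voom and sample weights 10 members passed in this comparison, against 15% of genes by the same tool. Laptm4a, Becn1, Lamp2 and Mcoln1 were among them. Without CKD-Oxf 4 Laptm4a and Lamp2 passed by edgeR, and the share of all genes that passed in that fit is not given here.

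Between sham-Oxf and sham-vehicle 0 of 38 members passed by edgeR, DESeq2 or limma voom, against 0%, 0.541% and 0.14% of genes, and 6 members had an unadjusted p under 0.05 against 12.6% of genes. The smallest p values were for Tfeb at 0.44 ± 0.12 (adjusted p = 0.168), Laptm4a at -0.52 ± 0.19 (0.252) and Atg12 at -0.62 ± 0.22 (0.256). Over the fits without 1 library the Atg12 difference ran from -0.75 to -0.43. Its lowest level, 3.13 CPM, was in sham-Oxf 1, the library with few genes. Groups of libraries that did not overlap were found for 0 members in either comparison, against 0.478% of genes in CKD and 0.227% in sham hearts.

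The 2 comparisons share no library. The sign was the same in both for 31 of 38 members (81.6%), 20 lower and 11 higher, and for 67.0% of all genes tested. All 8 conjugation genes kept their sign, 7 lower and Atg7 higher, as did 12 of 15 lysosomal genes and 7 of 8 initiation genes. Across the 38 members the Spearman correlation of the 2 differences was 0.84, against 0.41 across all genes. Genes are not independent replicates, and members share libraries in which many of them are high or low together, so these are descriptions. The interaction of surgery and Oxf passed for 0 members by edgeR, DESeq2 or limma voom, against 0% of genes by each, with 1 member at an unadjusted p under 0.05 against 3.55%. That member was Becn1, at 0.36 ± 0.17 (adjusted p = 1.00), whose Oxf difference was 0.36 in CKD and 0.00 in sham hearts. The next were Tfeb at -0.23 ± 0.18 and Wipi2 at 0.22 ± 0.17, the latter 0.08 without sham-Oxf 1. For Laptm4a the interaction was -0.06 with a 95% interval from -0.60 to 0.47, an interval that holds differences as large as either Oxf effect.

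**Figure D3:**
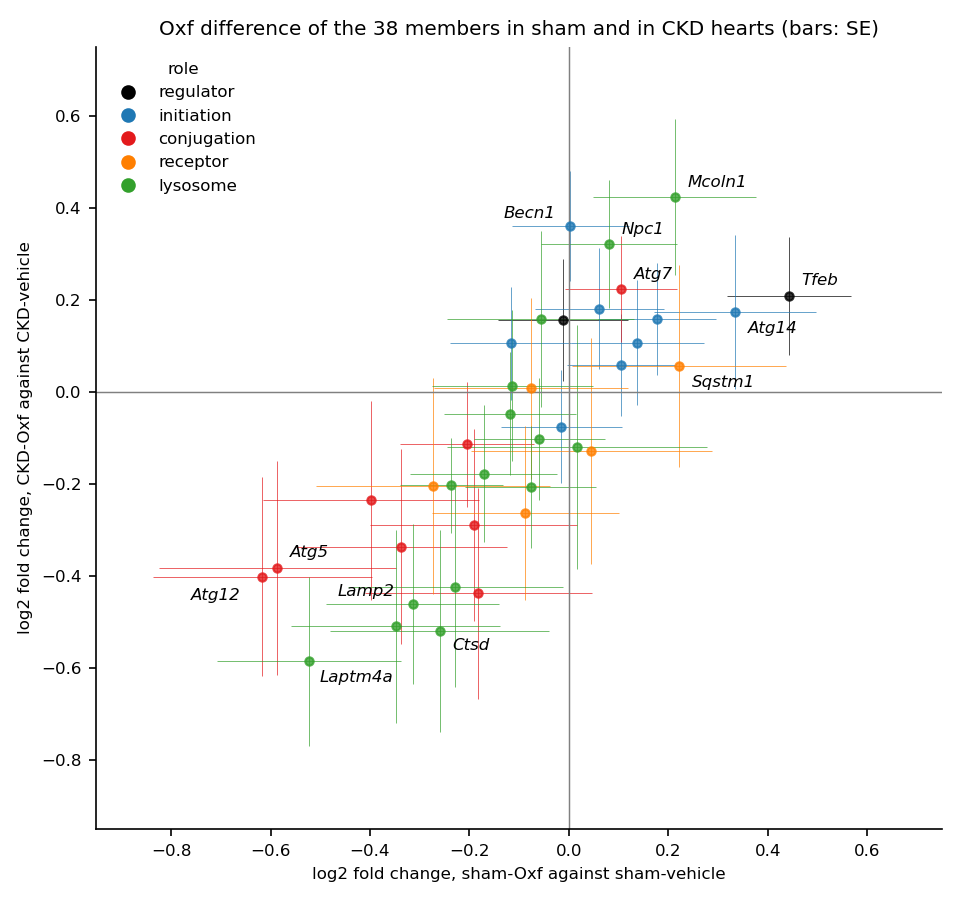
Each point is 1 of the 38 members, with its log2 fold change with Oxf in sham hearts on the horizontal axis, in CKD hearts on the vertical axis, SE bars on both, and colour by role. In all, 20 members lie in the lower left part and 11 in the upper right, with Laptm4a, Atg12 and Atg5 farthest to the lower left.

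The second question was whether CKD went with a difference. Between CKD-vehicle and sham-vehicle 0 of 38 members passed by edgeR, DESeq2 or limma voom, against 2 genes (0.00824%) by edgeR, 0.12% by DESeq2 and 0.383% by limma voom, and 1 member had an unadjusted p under 0.05 against 4.46% of genes. That was Map1lc3a, which ran from 32.7 through 49.9 to 76.9 CPM in sham-vehicle and from 52.0 through 72.5 to 117.6 in CKD-vehicle, a difference of 0.46 ± 0.21 (adjusted p = 0.955). Ctsd followed at 0.41 ± 0.20 and Tfe3 at -0.23 ± 0.12, both with the same adjusted p. The top Map1lc3a and Ctsd values in CKD-vehicle were those of CKD-vehicle 2 and 3, the libraries with the most 7SL RNA in that group. Without CKD-vehicle 2 the difference was 0.28 for Map1lc3a and 0.18 for Ctsd. The median over members was 0.09 against -0.03 over all genes, and all 5 receptor genes lay above 0 (44.4% of all genes did), from 0.05 for Optn to 0.36 for Pink1. The 8 cardiomyocyte markers had a median of 0.46 in the same comparison with 0 past the threshold.

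Between CKD-Oxf and sham-Oxf 0 members passed by edgeR, DESeq2 or limma voom, against 0%, 0.421% and 0% of genes, and 2 members had an unadjusted p under 0.05 against 8.23% of genes. These were Becn1 at 0.29 ± 0.13 (adjusted p = 0.514) and Atg14 at -0.36 ± 0.17 (0.592). Without sham-Oxf 1, the library with few genes, they were 0.19 and -0.11. All 8 conjugation genes lay above 0 here, as did 56.7% of all genes, with Atg5 the farthest at 0.46 ± 0.25, and 7SL RNA was also more abundant in CKD-Oxf than in sham-Oxf (medians above). The Atg5 difference was 0.25 without CKD-Oxf 4, and -0.01 with the 7SL share as a covariate. Surgery averaged over both gavages also gave 0 members by edgeR, DESeq2 or limma voom, against 0%, 0.485% and 0.519% of genes, and 4 members had an unadjusted p under 0.05 against 10.6% of genes. These were Atg14 at -0.28 ± 0.12 (adjusted p = 0.395), Atg5 at 0.36 ± 0.17 (0.450), Atg13 at 0.20 ± 0.10 (0.452) and Map1lc3a at 0.33 ± 0.16 (0.470). Atg14 was at -0.16 without sham-Oxf 1, and with the 7SL share as a covariate it passed at -0.42 (0.0279). A test of any difference among the 4 groups passed for 0 members by edgeR, 1 by DESeq2 and 12 by limma voom with sample weights, against 36 genes (0.148%) by edgeR, 4.5% by DESeq2 and 15.8% by limma voom, and 9 members against 16.1% of genes had an unadjusted p under 0.05. The smallest adjusted p were 0.126 for Laptm4a, 0.153 for Tfeb and 0.208 for Becn1.

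Members varied widely between libraries of the same group. The mean log2 deviation over conjugation, receptor and lysosomal genes was high in all 3 roles in sham-vehicle 5 and 7, CKD-vehicle 2 and 3 and CKD-Oxf 4, from 0.27 to 0.70. Of these 5 libraries, 4 had the highest 7SL shares of all 28, from 19.1% to 21%, and sham-vehicle 7 had 10.8%. The mean over receptor genes, as log2 deviation from the sham-vehicle mean, ran on vehicle from -0.30 to 0.70 (sham) and from -0.34 to 0.57 (CKD), and with Oxf from -0.62 to 0.51 (sham) and from -0.45 to 0.61 (CKD).

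**Figure D4:**
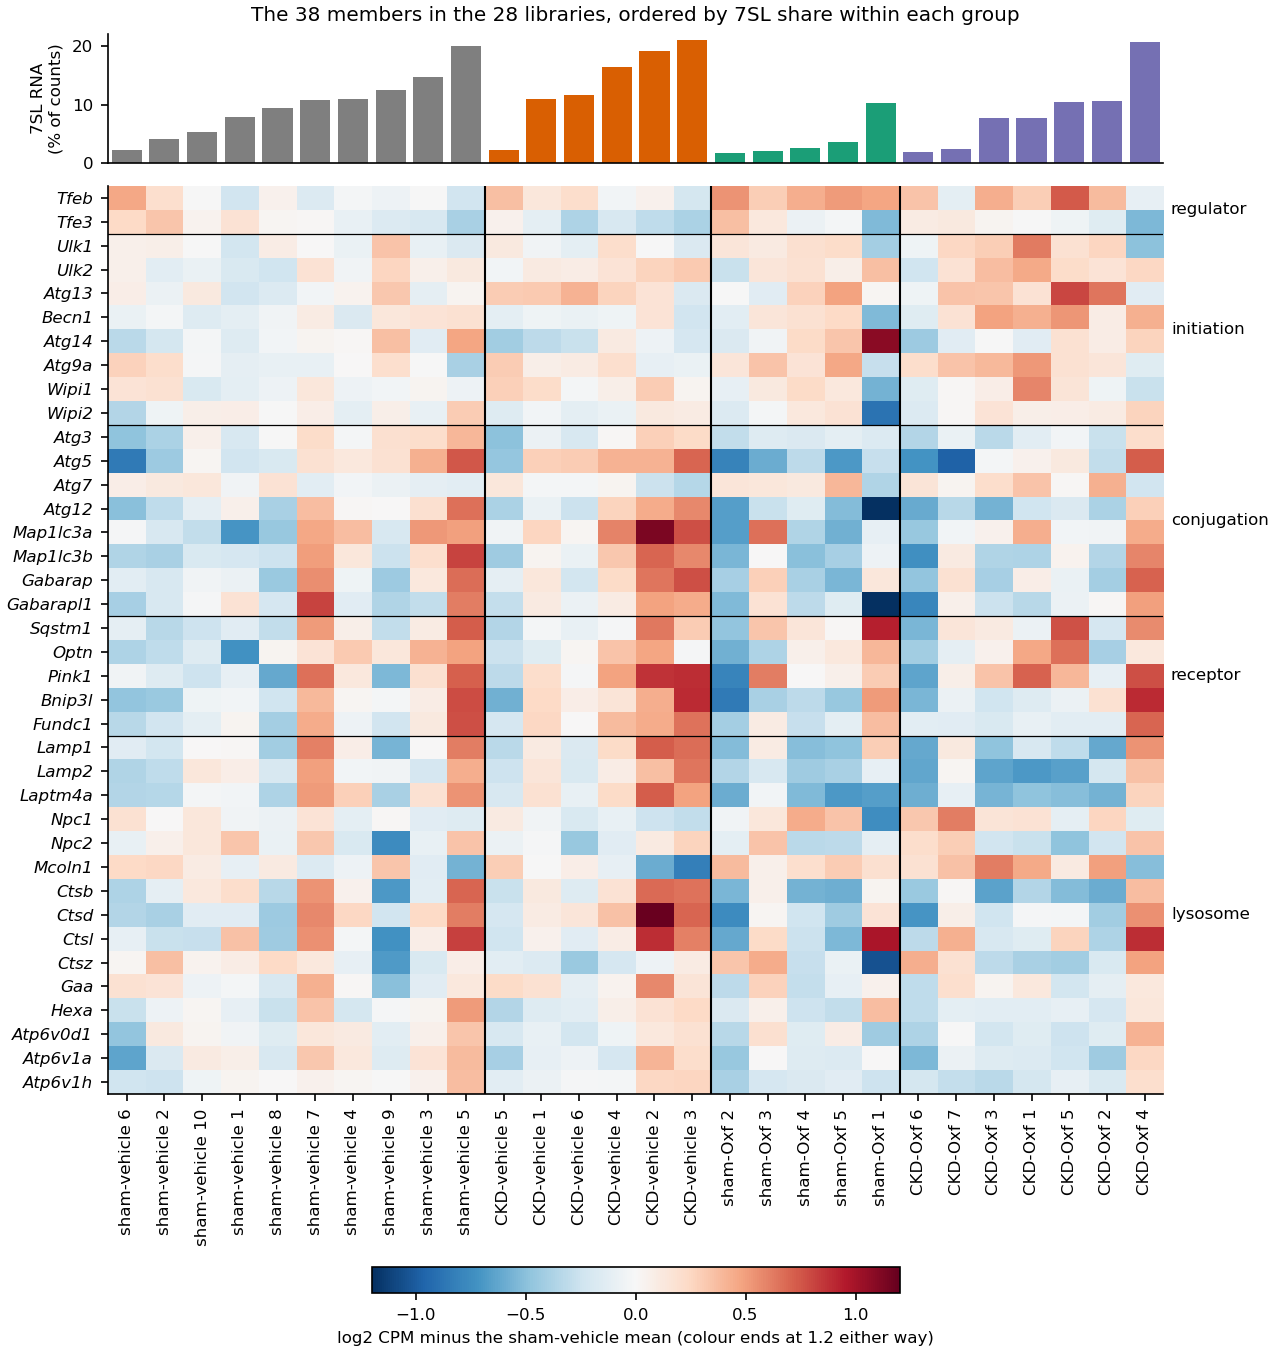
Rows are the 38 members by role, columns the 28 libraries ordered within their group by the share of counts on 7SL RNA (bars at the top, in percent), and colour is log2 CPM minus the sham-vehicle mean. Conjugation, receptor and lysosomal genes are high together in sham-vehicle 5, CKD-vehicle 2 and 3 and CKD-Oxf 4, the 4 libraries with the highest 7SL shares.

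The slope of each gene on the log2 7SL share within groups was fitted, a comparison added after the data were seen. It passed for 24 of 38 members, 20 higher and 4 lower with more 7SL RNA, against 37.7% of all genes (16.7% higher and 21% lower). At an unadjusted p under 0.05 there were 28 members, against 47.1% of genes. The median slope was 0.15 per doubling over members and -0.05 over all genes. Both values come from the same libraries, so the slope describes the libraries. All 5 receptor genes rose with the share, led by Bnip3l at 0.35 ± 0.05 per doubling (adjusted p = 3.24e-06), with Pink1 at 0.26, Sqstm1 at 0.26, Optn at 0.23 and Fundc1 at 0.22. Bnip3l held 63.0 CPM in sham-vehicle 5, 68.2 in CKD-vehicle 3 and 68.3 in CKD-Oxf 4, the top libraries of 3 groups, and 26.4, 24.6 and 25.1 in sham-vehicle 6, CKD-vehicle 5 and CKD-Oxf 6, which had 2.30%, 2.26% and 1.95% of 7SL RNA.

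Atg5 had the smallest p of the members, at 0.38 ± 0.04 per doubling (adjusted p = 6.58e-07). It was 14.9 CPM in sham-vehicle 5, 14.4 in CKD-vehicle 3 and 14.7 in CKD-Oxf 4 at shares from 19.9% to 21%, and 4.91, 6.4, 5.04 and 5.37 in sham-vehicle 6, CKD-vehicle 5, sham-Oxf 2 and CKD-Oxf 6 at shares from 1.83% to 2.30%. Of the other conjugation genes Map1lc3b (0.25), Map1lc3a (0.19), Gabarap (0.18) and Atg3 (0.17) passed. Among lysosomal genes 8 rose, with Ctsd at 0.26 and Ctsl at 0.25 the farthest, and 2 fell, Npc1 at -0.16 and Mcoln1 at -0.15. Tfe3 (-0.18) and Atg9a (-0.12) fell too, while Atg14 (0.21) and Ulk2 (0.10) rose. The 2 members that passed for Oxf did not pass here, at 0.14 ± 0.06 for Laptm4a (adjusted p = 0.0507) and -0.08 for Tfeb (0.12).

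**Figure D5:**
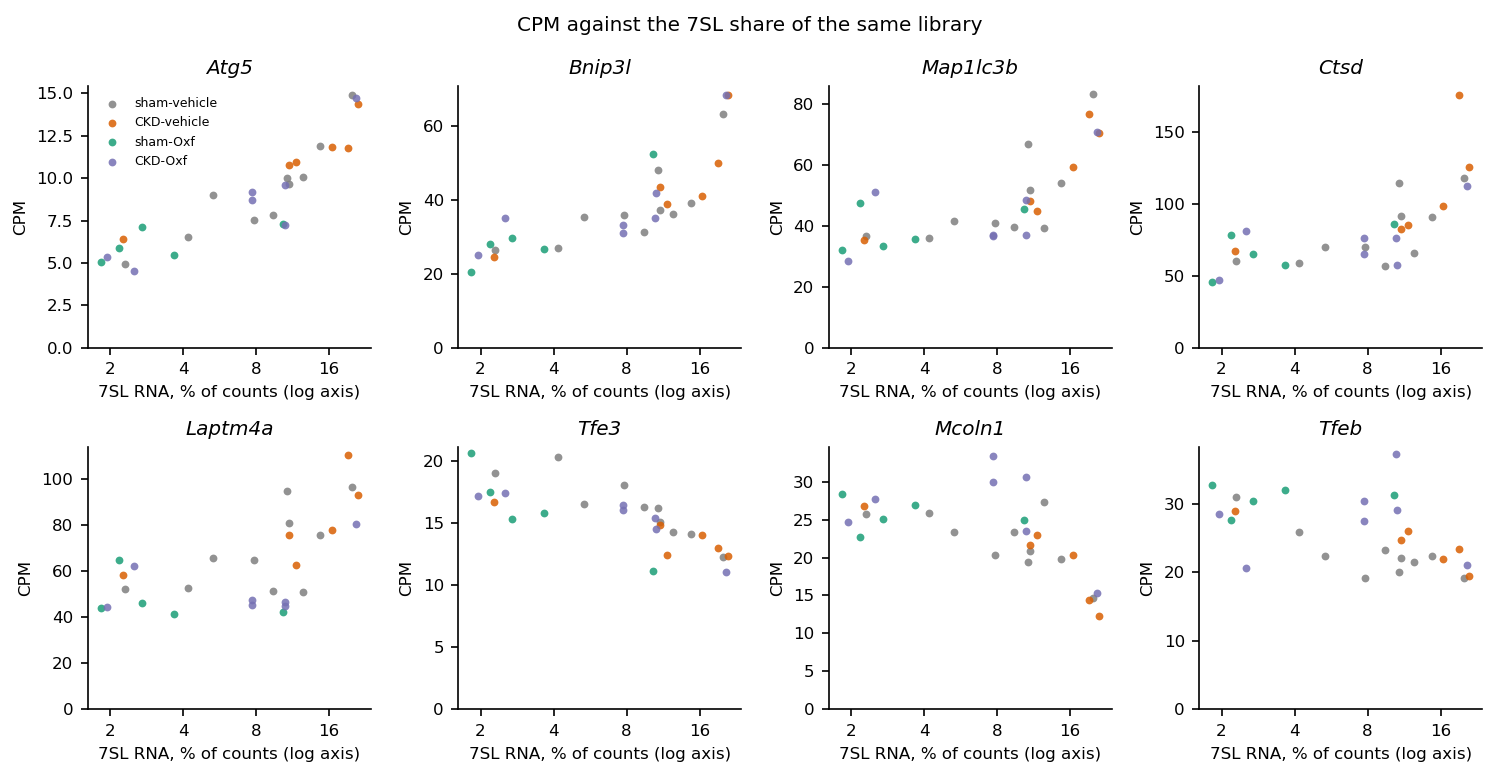
CPM (from 0) against the 7SL share of the same library in percent (log axis) for 8 members, with colour by group. Atg5 and Bnip3l rise and Tfe3 and Mcoln1 fall with the share (slopes 0.38, 0.35, -0.18 and -0.15 per doubling). In Laptm4a 9 of the 12 Oxf libraries lie below all 16 vehicle libraries. The Oxf libraries above them are sham-Oxf 3, CKD-Oxf 7 and CKD-Oxf 4, at 64.9, 62.2 and 80.2 CPM with 2.18%, 2.52% and 20.6% of 7SL RNA.

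Slopes within groups on the 2 other library measures gave no member. Both measures also differed between the gavages, which slopes within groups do not test. Vehicle mice had numbers 901 to 920 and Oxf mice 921 to 940, so gavage and mouse number cannot be told apart between groups. The clock score reached at most -0.30 in CKD-vehicle and at least -0.16 in CKD-Oxf. In sham hearts it reached at most 2.01 on vehicle and at least 0.71 with Oxf. On the clock score within groups 0 members passed by edgeR, DESeq2 or limma voom, against 36 genes (0.148%) by edgeR, 0.639% by DESeq2 and 0.445% by limma voom, with 4 members at an unadjusted p under 0.05 against 8.37% of genes. These were Ctsl at -0.27 ± 0.10 per unit (adjusted p = 0.500), Pink1 at -0.23 ± 0.09, Gaa at -0.11 ± 0.05 (-0.07 without sham-vehicle 9) and Lamp1 at -0.18 ± 0.08. On mouse number within groups 0 members passed by edgeR, DESeq2 or limma voom, against 9 genes (0.0371%) by edgeR, 0.176% by DESeq2 and 0.128% by limma voom, with 1 at an unadjusted p under 0.05 against 5.5%. That was Npc1, at 0.04 ± 0.01 per number (adjusted p = 0.756), followed by Ctsl at -0.06 ± 0.03 (-0.03 without sham-Oxf 1) and Atg13 at 0.03 ± 0.02.

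Transcript composition also varied with the groups. Over 15574 protein-coding genes the averaged Oxf difference had a Spearman correlation of 0.36 with the GC content of the longest transcript, and over the 38 members it was 0.32, as a description across genes. Tfeb, at 63.2% GC, stood at the high end, and Laptm4a, at 48.7%, below the middle of the members, whose range ran from 37.6% in Atp6v1h. The slope of log2 CPM on GC content per library had medians of -0.21, -0.23, -0.01 and -0.03 per 10 points.

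A further 100 genes of the same route that are not among the 38 were listed by role, and all 100 were tested. For Oxf averaged over surgery 5 passed, 5 higher and 0 lower, against 1.26% and 1.54% of genes. At an unadjusted p under 0.05 there were 48, 21 higher and 27 lower, against the 23% of genes given above, and 59 of the 100 lay below 0. Of 22 initiation and nutrient-sensing genes 3 passed, Uvrag (0.30 ± 0.07), which acts with BECN1, the regulatory subunit Pik3r4 (0.26 ± 0.07) of the same lipid kinase complex, and Tsc1 (0.27 ± 0.07), which restrains the growth kinase mTOR. Of 15 conjugation and fusion genes 1 passed, the tethering factor Epg5 (0.37 ± 0.10), of 18 receptor and mitophagy genes 0, and of 45 lysosomal genes 1, Cln3 (0.53 ± 0.15), a lysosomal membrane protein. Uvrag had mean levels of 34.6 ± 4.09 (sham) and 32.8 ± 2.96 CPM (CKD) on vehicle and of 41.9 ± 7.01 (sham) and 41.3 ± 4.92 CPM (CKD) with Oxf. The medians by role were 0.15 for initiation, 0.02 for conjugation, -0.04 for receptors and -0.19 for lysosomal genes. Of the lysosomal genes 32 of 45 lay below 0, with Cd63 (-0.58 ± 0.17, adjusted p = 0.0576) and the V-ATPase accessory gene Atp6ap2 (-0.53 ± 0.15, 0.0522) short of the threshold, as was the mitophagy receptor gene Bnip3 (-0.70 ± 0.21, 0.0623). On the 7SL share 42 of the 100 passed, 32 higher and 10 lower, against the 37.7% of all genes given above. In the 2 comparisons within a surgery and in CKD against sham under vehicle, 0 of the 100 passed by edgeR, with 22 (CKD), 24 (sham) and 5 (vehicle) at an unadjusted p under 0.05 against 13.1%, 12.6% and 4.46% of genes.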

How the data were processed

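RNA counts per gene were read from the count table that the authors deposited, with 45513 gene rows and 28 libraries. Per the submitters' processing notes, FastQC 0.11.7, MultiQC 1.9, STAR 2.6.1d, Subread, featureCounts 1.6.3 and mm10 were used, and the annotation and strand setting are not given in the sources used here. The counts were tested as deposited with edgeR 4.0.16 in R 4.3.3 (TMM scaling, filterByExpr by group with a minimum count of 10, robust quasi-likelihood fit of 4 group means, 24 residual degrees of freedom, Benjamini-Hochberg adjustment at 0.05). Each library is a different mouse, so p-values measure the spread between these mice. DESeq2 1.42.0, limma 3.58.1 voom, other scalings and filters, library covariates and leaving out each library were alternatives, the GC slope covariate and the 7SL slope being added after the data were seen. Positions, exon lengths and GC came from GENCODE M21 (45465 of 45513 IDs matched), and promoters from RefSeq. The procedure was tested on simulated data. The members and lists were chosen with earlier results of these data known. Members were given in full where they passed (at most the 8 with the smallest p per comparison), otherwise the 3 with the smallest p, with the highest CPM in each role. Other pathway genes were named where they passed, at most 4 per direction by smallest p. Further named genes, Cln3, Cd63, Atp6ap2 and Bnip3 among them, were chosen after their values were seen.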

Additional observations from a re-analysis of the deposited data

Results flagged for a closer look

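For each group the gap between its most extreme value and the next one was divided by the group's whole range (Dixon's ratio). Of 172 such comparisons 16 passed the critical value at 95%, where chance gives about 1 in 20, or 8.6. CKD-Oxf 4 stood high for Atg12 (ratio 0.5967, 13.8 CPM against 9.97 in the next library), Bnip3l (0.615, 68.3 against 41.7), Fundc1 (0.919, 12.5 against 7.21), Atp6v0d1 (0.6065, 17.3 against 12.9) and Atp6v1h (0.6031, 22.6 against 18.4). The same library was lowest in its group for the slope on GC content (0.6374, -0.42 against -0.10 log2 per 10 points). Sham-Oxf 1 was low for Ulk1 (0.7907, 41.3 against 59.3 CPM) and high for Bnip3l (0.7115, 52.4 against 29.6), and had the fewest genes counted (0.7964, 15879 against 30306) and the most 7SL RNA of its group (0.7843, 10.3% against 3.66%). Sham-Oxf 3 was high for Laptm4a (0.7945, 64.9 against 46.2 CPM) and Npc2 (0.7261, 30.3 against 22.1). Sham-vehicle 9 was high for Ulk1 (0.506, 69.8 against 58.4), sham-vehicle 5 for Atp6v1h (0.5705, 25.5 against 20.4) and CKD-Oxf 1 for Wipi1 (0.5755, 51.5 against 38.3). CKD-Oxf 1 was lowest in its group for the clock score (0.6872, -0.16 against 1.24).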

How the results depend on the processing

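Of 1400 alternative values for 38 named results, 1348 kept their direction and side of the threshold, 33 lost and 18 gained it, and 1 reversed. The losses were those of the 2 members that passed for Oxf averaged over surgery. Tfeb lost its call in 24 of 38 alternatives and Laptm4a in 9 of 38, so the pooled count says little about these 2 calls. For Oxf averaged over surgery, the count of 2 members was 7 by DESeq2 and 17 by limma voom. It was 1 with no filter and 6 with at least 10 counts in every library. With a covariate it was 0 for the clock score, 1 for the 7SL share (Atg14) and 0 for the GC slope. With mouse number within groups, which leaves the gap in number between gavages in place, it was 1 (Laptm4a). Over the fits without 1 library it was 0 to 11. For settings other than DESeq2 and limma voom the share of all genes that passed is not given here. Those counts only describe the members. The count of 0 was 10 by limma voom for CKD-Oxf against CKD-vehicle (0 to 2 without 1 library), 1 with the 7SL share for sham-Oxf against sham-vehicle and for surgery averaged over gavage, and for any difference 1 by DESeq2, 12 by limma voom, 1 with the 7SL share and 0 to 1 without 1 library. The Atg5 difference between CKD-Oxf and sham-Oxf reversed to -0.0127 with the 7SL share. The cause of these shifts was not tested. Counts of 0 for the other comparisons remained 0 in each alternative run, and the 7SL slope count of 24 was 18 to 29. No paired analysis was possible because the groups share no replicate numbers in the labels, where each mouse has a number of its own. With 5 to 10 libraries per group, the width of the intervals limits what could be detected.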
